A study of Mus musculus with 6 samples.

Results

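Interferon-stimulated antiviral genes and their regulators were examined in bone marrow multipotent progenitors with and without the latexin gene. The set holds 37 named genes, matched by gene symbol or synonym to array features that carry a single gene, and 35 of the 37 had such a feature. Isg15 lies only on a feature that lists several genes and Ifi44 has no feature listed, so neither has a value here. Irf1 has several features, of which the brightest over the 6 arrays was used. The genes are described by role as 7 transcription factors, 7 sensors of nucleic acids, 14 antiviral effectors and 7 regulators of feedback and protein or RNA modification, out of 19938 genes with a single-gene feature.

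RNA of 3 pools of Lxn-/- progenitors was compared with RNA of 3 pools of wild-type (WT) progenitors on Affymetrix MoGene 1.0 ST arrays, which read whole transcripts. The Lxn-/- mice lack exons 2 to 4 of latexin, an inhibitor of carboxypeptidases, and the WT mice carry the intact gene. All donors are labelled as female C57BL/6 mice of 8 to 12 weeks, and neither group was given any agent according to the labels. Progenitors were sorted as lineage-negative, Sca-1+, c-Kit+ and CD34+ cells that were also positive for a receptor the series text spells Flt2. Each pool held about 100000 cells from 10 to 20 mice. The series text also speaks of long-term stem cells in places, and the labels are followed here. Values are log2 expression values, and every difference is Lxn-/- minus WT on that scale.

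Interferons bind receptors that activate JAK kinases, and these phosphorylate STAT proteins. STAT2 and IRF9 act in a complex that binds the interferon-stimulated response element (ISRE) in the promoters of antiviral genes. Some of the induced proteins sense viral RNA or DNA, some block steps of viral growth, and others feed back on the pathway. Interferon can drive quiescent hematopoietic stem cells into division, and stem and progenitor cells are known to hold many of these genes at a basal level without infection.

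Several checks bear on the arrays. Lxn itself was 8.03, 8.53 and 8.61 in Lxn-/- arrays 1, 2 and 3, against 8.56, 8.70 and 8.58 in the WT arrays (log2 change -0.22, SE 0.15, limma adjusted p = 0.459). The exons read by its probes are not known here, so this feature does not check the genotype. Of the sort gate genes, Cd34 was 13.33 to 13.48 in Lxn-/- and 13.36 to 13.46 in WT, Flt3 was 12.45 to 12.83 in Lxn-/- and 12.68 to 12.75 in WT, and Ly6a has no feature listed. Kit was 11.48 in Lxn-/- array 1 and 12.15 and 12.10 in Lxn-/- arrays 2 and 3, against 12.05 to 12.19 in WT. Xist was 6.86 and 5.85 in Lxn-/- arrays 1 and 3 but 13.17 in Lxn-/- array 2 and 13.13 to 13.23 in WT. The Y-linked gene Eif2s3y ran the other way, at 8.57 and 9.36 in Lxn-/- arrays 1 and 3, 3.83 in Lxn-/- array 2 and 3.68 to 3.97 in WT. Signal in these arrays thus goes against the label of sex for 2 of the 3 Lxn-/- pools, and results are given with and without single Lxn-/- arrays where they change.

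Promoter sequences were searched for the core of the classical interferon element. RefSeq promoter windows (GRCm38.p6, 250 bases before to 50 after the transcription start) were found for 28 of the 37 genes. An ISRE core, searched as GAAA, any 2 bases and GAAA on either strand with overlapping matches allowed, was present in 11 of the 28 (39.3%), against 3.99% of the 27025 genes with a window. The gamma-activated site TTCNNNGAA, which reads the same on both strands, was present in 7 of the 28, against 9.55% of genes. These matches describe letters in a window and are not tests of binding. A gene without a window or a match cannot be said to lack the element. The sequences below are the bases before the start, 5′ to 3′ on the gene's strand, with ISRE matches in capitals. They are shown for measured members with a match and the smallest unadjusted p, and for Ifit1 and Ifit3, which were added after their values were seen because each holds a pair of matches. Bst2 lies at chr8:71537473-71537722, minus strand, with 2 overlapping matches starting 130 and 124 bases before the start. Irf2 lies at chr8:46739495-46739744, plus strand, with its match 241 bases before the start. Rsad2 lies at chr12:26456453-26456702, minus strand, with its match 120 bases before the start. Stat2 lies at chr10:128270248-128270497, plus strand, with its match 222 bases before the start, and Oas3 at chr5:120777660-120777909, minus strand, with its match 75 bases before the start. Ifit1 lies at chr19:34640639-34640888, plus strand, with matches 104 and 85 bases before the start. Ifit3 lies at chr19:34583279-34583528, plus strand, with matches 156 and 122 bases before the start. For Ddx58, whose match begins at base 3 after the start, a stretch of 30 bases around it is given (chr4:40239804-40239833, minus strand).
Bst2: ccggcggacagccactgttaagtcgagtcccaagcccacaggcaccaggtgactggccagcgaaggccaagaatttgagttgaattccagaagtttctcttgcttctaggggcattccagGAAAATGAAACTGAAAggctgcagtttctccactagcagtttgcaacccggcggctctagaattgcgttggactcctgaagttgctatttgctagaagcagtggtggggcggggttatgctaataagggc
Irf2: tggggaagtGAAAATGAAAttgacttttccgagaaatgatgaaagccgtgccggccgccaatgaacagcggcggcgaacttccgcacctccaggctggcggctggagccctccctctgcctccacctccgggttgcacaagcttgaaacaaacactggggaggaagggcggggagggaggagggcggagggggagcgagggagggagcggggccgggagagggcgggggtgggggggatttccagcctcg
Ddx58: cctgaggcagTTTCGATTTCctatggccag
Rsad2: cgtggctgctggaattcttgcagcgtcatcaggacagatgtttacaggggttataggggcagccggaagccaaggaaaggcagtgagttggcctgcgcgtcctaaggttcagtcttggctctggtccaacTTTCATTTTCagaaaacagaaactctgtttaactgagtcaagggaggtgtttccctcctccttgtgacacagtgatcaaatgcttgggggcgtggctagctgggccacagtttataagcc
Stat2: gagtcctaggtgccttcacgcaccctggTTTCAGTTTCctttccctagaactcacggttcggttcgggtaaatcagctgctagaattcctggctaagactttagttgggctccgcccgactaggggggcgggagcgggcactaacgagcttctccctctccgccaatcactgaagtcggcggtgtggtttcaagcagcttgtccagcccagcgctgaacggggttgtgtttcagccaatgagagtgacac
Oas3: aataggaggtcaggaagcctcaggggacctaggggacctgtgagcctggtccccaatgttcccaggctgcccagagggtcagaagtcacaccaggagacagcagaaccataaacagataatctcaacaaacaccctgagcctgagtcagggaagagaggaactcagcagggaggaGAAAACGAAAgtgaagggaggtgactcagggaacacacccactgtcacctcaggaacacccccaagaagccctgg
Ifit1: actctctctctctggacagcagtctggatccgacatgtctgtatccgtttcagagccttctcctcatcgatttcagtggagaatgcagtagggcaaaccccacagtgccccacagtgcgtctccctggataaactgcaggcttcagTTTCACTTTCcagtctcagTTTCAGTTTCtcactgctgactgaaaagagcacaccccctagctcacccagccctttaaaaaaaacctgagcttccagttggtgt
Ifit3: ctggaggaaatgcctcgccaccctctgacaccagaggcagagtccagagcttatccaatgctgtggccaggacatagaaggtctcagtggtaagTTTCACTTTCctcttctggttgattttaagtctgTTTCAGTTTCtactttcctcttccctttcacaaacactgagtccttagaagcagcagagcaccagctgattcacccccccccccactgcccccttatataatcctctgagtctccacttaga

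The mean level of the interferon-response genes did not separate the genotypes, whereas the Lxn-/- pools differed widely among themselves. Of the 35 genes, 12 had higher and 23 had lower means in Lxn-/- cells, with changes between -0.38 and 0.23, and 57.8% of all features had lower means. The median change was -0.085 in log2, against -0.038 over all 23410 tested features. No member passed an adjusted p of 0.05 in limma (smallest adjusted p = 0.365), as was the case for 0.0% of all features. At an unadjusted p under 0.05 the count of members was also 0 in each direction, against 5.06% of features higher and 9.23% lower. The groups did not overlap for 1 member, Irf3, which was higher in Lxn-/- cells, and for 0 members in the lower direction. Over all features 8.54% were higher and 13% lower without overlap. Within groups the members were more spread among Lxn-/- pools, with a median SD of 0.34 in Lxn-/- arrays and 0.09 in WT arrays, against 0.13 and 0.10 over all features. The SD was larger in Lxn-/- than in WT arrays for 34 of the 35 members, and for 58.1% of all features.

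The spread had the same shape in most members, with Lxn-/- array 1 at the bottom and Lxn-/- array 2 at the top. Lxn-/- array 1 held the lowest of the 6 values for 31 of the 35 genes, against 17.9% of all features. Lxn-/- array 2 held the highest value for 27 genes, against 13.8% of all features. Both held at once for 25 genes, against 5.15% of features. Relative to the WT mean, the median member was at -0.45 in Lxn-/- array 1, 0.22 in array 2 and 0.06 in array 3, and at 0.02, -0.08 and 0.06 in WT arrays 1, 2 and 3. Over all features these medians lay between -0.04 and 0.02 in all 6 arrays. Lxn-/- array 1 lay below every WT array for 31 members, against 32.2% of features, and Lxn-/- array 2 lay above every WT array for 28, against 27.4% of features. Lxn-/- array 3 fell within the WT range for 14 members, above it for 14 and below it for 7. Of all features 31.5% lay within, 28.2% above and 40.3% below the WT range in that array. The median member was lower in array 1 than in array 3, which both show the Y-linked signal. Array 2, the Lxn-/- array without that signal, held the highest value for 27 genes. The part of sex in this spread was not tested. Since RNA of pooled cells was measured, fewer cells of a responding kind and less RNA per cell cannot be told apart.

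**Figure D1:**
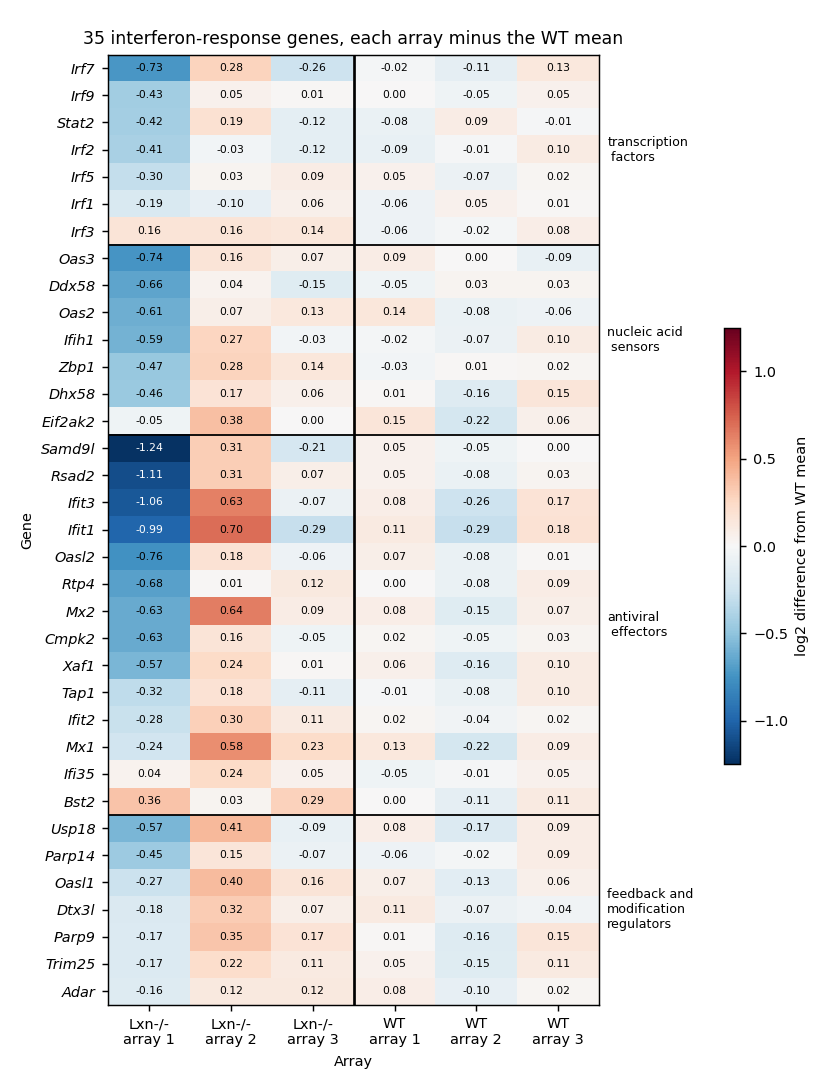
Each cell gives 1 gene (rows, by role) in 1 array (columns) as the log2 difference from the mean of the 3 WT arrays. The Lxn-/- array 1 column is below the WT mean for 32 of 35 genes and the Lxn-/- array 2 column is above it for 33.

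**Figure D2:**
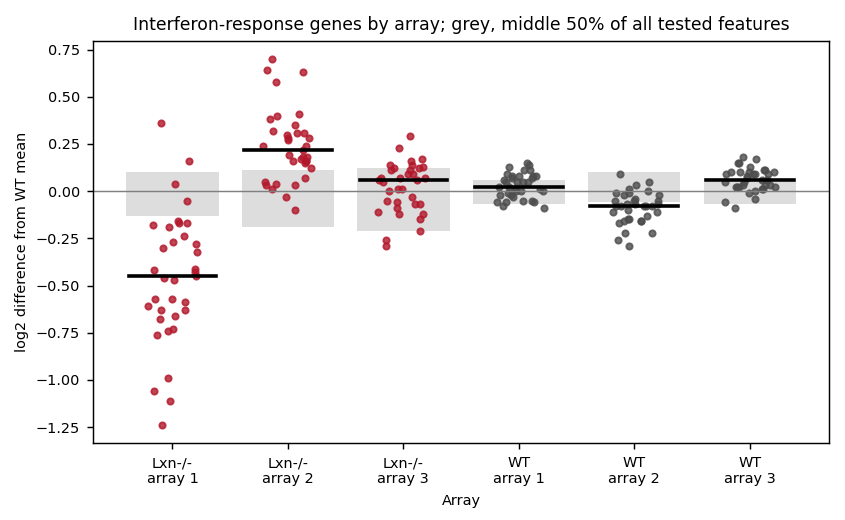
Points are the 35 genes in each array as log2 difference from the WT mean (vertical axis), black lines are their medians, and grey boxes span the middle 50% of all tested features. Lxn-/- array 1 has a median of -0.45 and Lxn-/- array 2 of 0.22, while the grey boxes stay between -0.21 and 0.12.

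Among the transcription factors, Irf7, the inducible amplifier of interferon production, varied most. It was 9.20, 10.21 and 9.67 in Lxn-/- arrays 1, 2 and 3, against 9.91, 9.82 and 10.06 in WT. Lxn-/- values thus lay on both sides of the WT values, with a log2 change of -0.24 (SE 0.22, limma adjusted p = 0.564), which was 0.01 without Lxn-/- array 1. Irf9 and Stat2, partners in the ISRE-binding complex, shared the low value of array 1. Irf9 was 10.10, 10.58 and 10.54 in Lxn-/- cells, against 10.53, 10.49 and 10.58 in WT. Stat2 was 9.21, 9.81 and 9.50 in Lxn-/- cells, against 9.54, 9.71 and 9.62 in WT. For Irf9 the other Lxn-/- values lay within the WT range, while for Stat2 array 2 lay above it and array 3 just below it.

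Irf3, the constitutive factor that switches on interferon genes after viral sensing, was the only transcription factor of the set not lowest in Lxn-/- array 1. It was 9.39, 9.39 and 9.36 in Lxn-/- arrays, against 9.16, 9.21 and 9.30 in WT. The Lxn-/- values were tightly grouped and all above WT, at 9.38 ± 0.02 in Lxn-/- and 9.23 ± 0.07 in WT cells (SD, n = 3 each). The change of 0.15 (SE 0.08) did not pass in limma (adjusted p = 0.396), and it was 0.08 (SE 0.08) after quantile normalization. Irf2, which represses as well as activates interferon targets, was 10.77, 11.16 and 11.07 in Lxn-/- cells, against 11.10, 11.17 and 11.29 in WT (change -0.19, SE 0.12). Irf1, a target of interferon gamma, was 10.38, 10.47 and 10.63 in Lxn-/- cells, against 10.51, 10.62 and 10.58 in WT (change -0.08, SE 0.10). Irf5, which acts downstream of Toll-like receptors, was 8.67, 8.99 and 9.05 in Lxn-/- arrays 1, 2 and 3, against 8.89 to 9.01 in WT.

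The nucleic acid sensors were low in Lxn-/- array 1 with 1 exception. Ddx58, which encodes the RNA sensor RIG-I, was 10.25, 10.95 and 10.76 in Lxn-/- arrays, against 10.86, 10.94 and 10.94 in WT. Only arrays 1 and 3 lay below WT, and the change of -0.26 (SE 0.16, limma adjusted p = 0.437) was -0.06 without array 1. Ifih1, encoding the RNA sensor MDA5, was 8.91, 9.77 and 9.47 in Lxn-/- arrays, against 9.48, 9.43 and 9.60 in WT. Dhx58, encoding their relative LGP2, was 8.96, 9.60 and 9.48 in Lxn-/- arrays, against 9.43, 9.26 and 9.57 in WT. In all 3 RNA helicases of this family array 1 was the lowest and array 2 the highest of the 6.

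The oligoadenylate synthetases make a messenger that turns on the RNA-cutting enzyme RNase L. Oas2 was 9.29, 9.97 and 10.03 in Lxn-/- arrays, against 10.04, 9.82 and 9.84 in WT (change -0.14, SE 0.18). Oas3 was 8.51, 9.41 and 9.32 in Lxn-/- arrays, against 9.34, 9.25 and 9.15 in WT. In both, array 1 stood more than 0.5 below the WT mean while arrays 2 and 3 lay within or close to the WT values. Zbp1, a sensor of left-handed nucleic acids that can trigger cell death, was 7.88, 8.63 and 8.50 in Lxn-/- arrays, against 8.33, 8.36 and 8.38 in WT. Its Lxn-/- values lay below WT in array 1 and above WT in arrays 2 and 3. Eif2ak2, the kinase PKR that stops translation on double-stranded RNA, was 9.47, 9.90 and 9.52 in Lxn-/- arrays, against 9.68, 9.31 and 9.59 in WT, and was the sensor gene for which array 1 was not the lowest.

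The antiviral effectors held the widest gaps. Samd9l, a restriction factor that also curbs the growth of blood progenitors, was 7.68, 9.23 and 8.71 in Lxn-/- arrays, against 8.96, 8.87 and 8.92 in WT. Array 1 was 2.36-fold below the WT mean while array 2 was above every WT array, and the change of -0.38 (SE 0.32, limma adjusted p = 0.535) was 0.05 without array 1. Rsad2, the nucleotide-modifying enzyme viperin, was 8.05, 9.47 and 9.23 in Lxn-/- arrays, against 9.21, 9.08 and 9.20 in WT. Its array 1 value was 2.16-fold below the WT mean, and the group change was -0.25 (SE 0.31), or 0.19 (SE 0.10) without array 1. Cmpk2, a mitochondrial nucleotide kinase gene next to Rsad2 on chromosome 12, was 8.58, 9.38 and 9.17 in Lxn-/- arrays, against 9.24, 9.17 and 9.24 in WT. Both neighbours were thus low in array 1 and high in array 2.

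The Ifit genes encode proteins that bind foreign RNA ends, and their cluster lies on chromosome 19. Ifit1 was 7.35, 9.05 and 8.06 in Lxn-/- arrays, against 8.46, 8.06 and 8.53 in WT. Ifit3 was 6.60, 8.29 and 7.59 in Lxn-/- arrays, against 7.74, 7.40 and 7.83 in WT. In array 1 they were 1.99-fold and 2.09-fold below the WT mean, and in array 2 above every WT value. Ifit1 averaged 8.15 ± 0.85 in Lxn-/- and 8.35 ± 0.26 in WT cells, and Ifit3 7.49 ± 0.85 in Lxn-/- and 7.66 ± 0.23 in WT cells (SD, n = 3 each). Their changes were -0.20 and -0.17 (SE 0.35 each), and without array 1 they were 0.20 and 0.28. Ifit2, the neighbour of Ifit3, moved less, at 7.97, 8.55 and 8.36 in Lxn-/- arrays, against 8.27, 8.20 and 8.27 in WT.

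Oasl2 and Tap1 followed the same order of arrays. Oasl2, of the oligoadenylate synthetase family, was 10.52, 11.46 and 11.23 in Lxn-/- arrays, against 11.35, 11.21 and 11.29 in WT (change -0.22, SE 0.21). Tap1, a subunit of the peptide transporter that loads MHC class I, was 11.01, 11.51 and 11.23 in Lxn-/- arrays, against 11.32, 11.25 and 11.43 in WT (change -0.08, SE 0.13). Both had their lowest value in array 1 and their highest in array 2. The Mx genes encode dynamin-like GTPases, of which Mx1 is known to be defective in C57BL/6 mice. Mx1 was 7.16, 7.98 and 7.64 in Lxn-/- arrays, against 7.54, 7.19 and 7.49 in WT. Mx2 was 6.01, 7.28 and 6.73 in Lxn-/- arrays, against 6.72, 6.49 and 6.71 in WT. For Mx1 the array 1 value lay just below that of WT array 2, and arrays 2 and 3 lay above every WT array. Xaf1, a gene linked to apoptosis, was 8.31, 9.12 and 8.88 in Lxn-/- arrays, against 8.94, 8.72 and 8.98 in WT. Rtp4, a receptor chaperone gene, was 9.31, 10.01 and 10.11 in Lxn-/- arrays, against 9.99, 9.91 and 10.08 in WT, so that array 1 again stood alone below the rest.

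Bst2 and Ifi35 were the effectors for which Lxn-/- array 1 was not the lowest. Bst2, or tetherin, holds budding virus at the cell surface. It was 10.29, 9.96 and 10.21 in Lxn-/- arrays, against 9.92, 9.82 and 10.04 in WT. Its highest values were in Lxn-/- arrays 1 and 3, and the change was 0.23 (SE 0.11), with limma's lowest adjusted p among the members (0.365). Ifi35, a regulator of innate signalling, was 9.12, 9.32 and 9.12 in Lxn-/- arrays, against 9.03, 9.07 and 9.13 in WT, with array 2 the highest as in most effectors. Neither gene was below the WT mean in array 1, although the Bst2 promoter shown above holds overlapping ISRE matches.

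**Figure D3:**
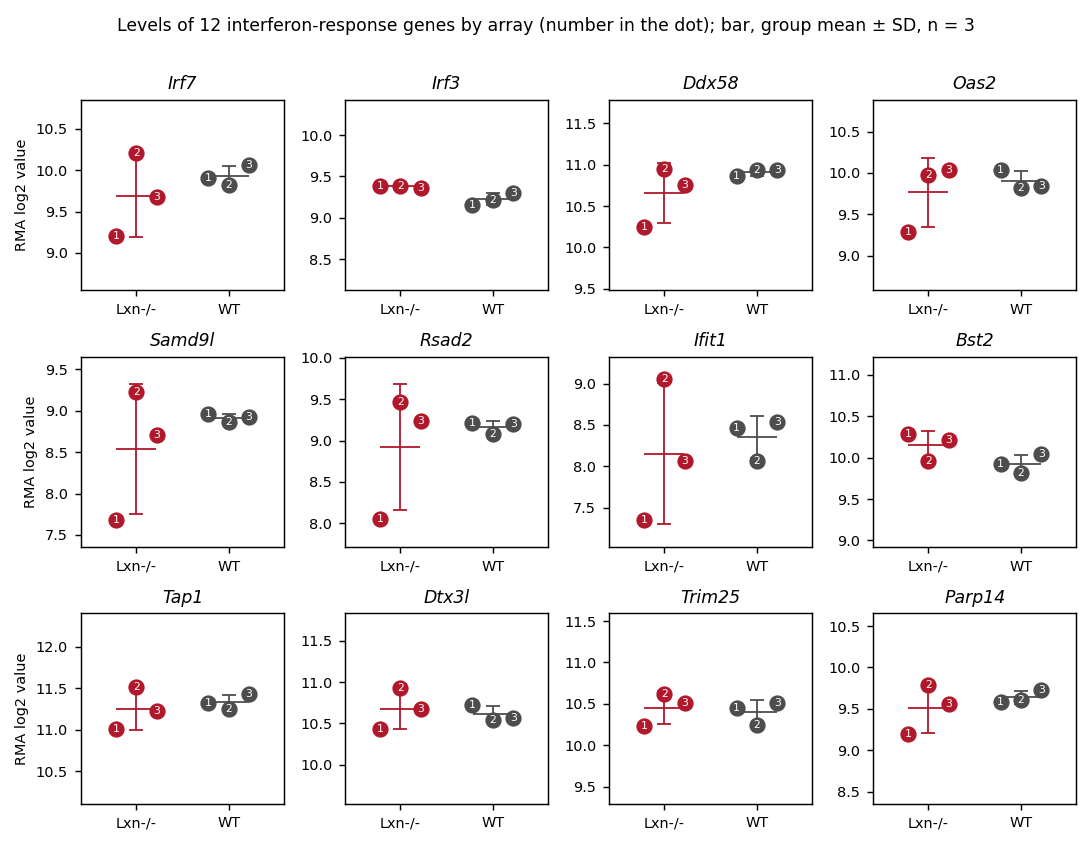
Dots are the log2 values of 12 of the genes in each array, numbered by replicate, with Lxn-/- left of WT, and bars give the group mean ± SD (n = 3), all panels spanning the same range of log2 units. Over the Lxn-/- arrays Samd9l spans 7.68 to 9.23, while Irf3 spans 9.36 to 9.39.

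The regulators showed a shallower low in Lxn-/- array 1 and a high in array 2. These were the lowest and highest of the 6 values in 7 of 7 genes, against 5.15% of all features. Usp18, which removes ISG15 and blocks the interferon receptor, was 9.51, 10.49 and 9.99 in Lxn-/- arrays, against 10.16, 9.91 and 10.17 in WT. Oasl1, which in mice restrains translation of Irf7, was 9.06, 9.73 and 9.49 in Lxn-/- arrays, against 9.40, 9.20 and 9.39 in WT. Usp18 had the deepest low of the group in array 1, and Oasl1 lay above WT in arrays 2 and 3. Parp14, an ADP-ribosyltransferase gene, was 9.19, 9.79 and 9.56 in Lxn-/- arrays, against 9.58, 9.61 and 9.73 in WT (change -0.12, SE 0.14, limma adjusted p = 0.658).

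Parp14, Dtx3l and Parp9 are consecutive on chromosome 16, and the proteins of the last 2 form a complex of ubiquitin ligase and ADP-ribose binder. Dtx3l was 10.43, 10.93 and 10.68 in Lxn-/- arrays, against 10.72, 10.54 and 10.57 in WT (change 0.07, SE 0.13). Parp9 was 9.14, 9.66 and 9.48 in Lxn-/- arrays, against 9.33, 9.15 and 9.46 in WT. Relative to the WT mean, Dtx3l and Parp9 were nearly the same in array 1 (-0.18 and -0.17) and in array 2 (0.32 and 0.35). Trim25, the ubiquitin ligase that acts on RIG-I, was 10.23, 10.62 and 10.51 in Lxn-/- arrays, against 10.45, 10.24 and 10.51 in WT (change 0.05, SE 0.12). Adar, which edits double-stranded RNA and keeps cellular RNA from being sensed, was 9.60, 9.88 and 9.88 in Lxn-/- arrays, against 9.85, 9.66 and 9.78 in WT. For Trim25 and Adar the array 1 value was close to that of WT array 2, the lowest WT array.

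By role, the median member in Lxn-/- array 1 relative to the WT mean was at -0.63 for effectors, -0.59 for sensors, -0.41 for transcription factors and -0.18 for regulators. In Lxn-/- array 2 the medians were 0.27, 0.17, 0.05 and 0.32 in the same order. The array 1 value was at least 0.5 below the WT mean for 15 of the 35 genes, against 2.34% of all features. Of the 15, 9 were effectors, 4 sensors, 1 a transcription factor and 1 a regulator. The 10 measured members with an ISRE match had a median of -0.62 in array 1 (range -1.11 to 0.36), and the 16 with a window but no match had a median of -0.29 (range -1.24 to 0.16). The ranges overlap, and the deepest low, that of Samd9l, was in a gene without a match in the window. Differences between roles or promoter classes were not tested.

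Leaving out Lxn-/- array 1 moved the members' median change across 0, while leaving out array 2 or array 3 moved it further below 0. Without Lxn-/- array 1, 32 of the 35 members had higher means in Lxn-/- than in WT cells, against 45.2% of all features, and the median change was 0.121. The members at an unadjusted p under 0.05 were then Zbp1, Mx1 and Oasl1, all higher, and 3 of 35 compares with 6.31% of all features. Mx1 had the largest such change, at 0.41 (SE 0.14), with an adjusted p of 0.165 in limma. Without Lxn-/- array 2, 31 of 35 had lower means, against 59.0% of all features, and the median change was -0.238. At an unadjusted p under 0.05, Irf7, Ddx58, Ifit1, Ifit3, Oasl2 and Samd9l were then lower and Bst2 higher, or 6 and 1 of 35, against 5.85% of features lower and 5.48% higher. Both Lxn-/- arrays of that fit show Y-linked signal and no WT array does, so genotype and sex-linked signal cannot be told apart. Without Lxn-/- array 3 the median was -0.143. No member passed an adjusted p of 0.05 in limma in any of these fits.

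**Figure D4:**
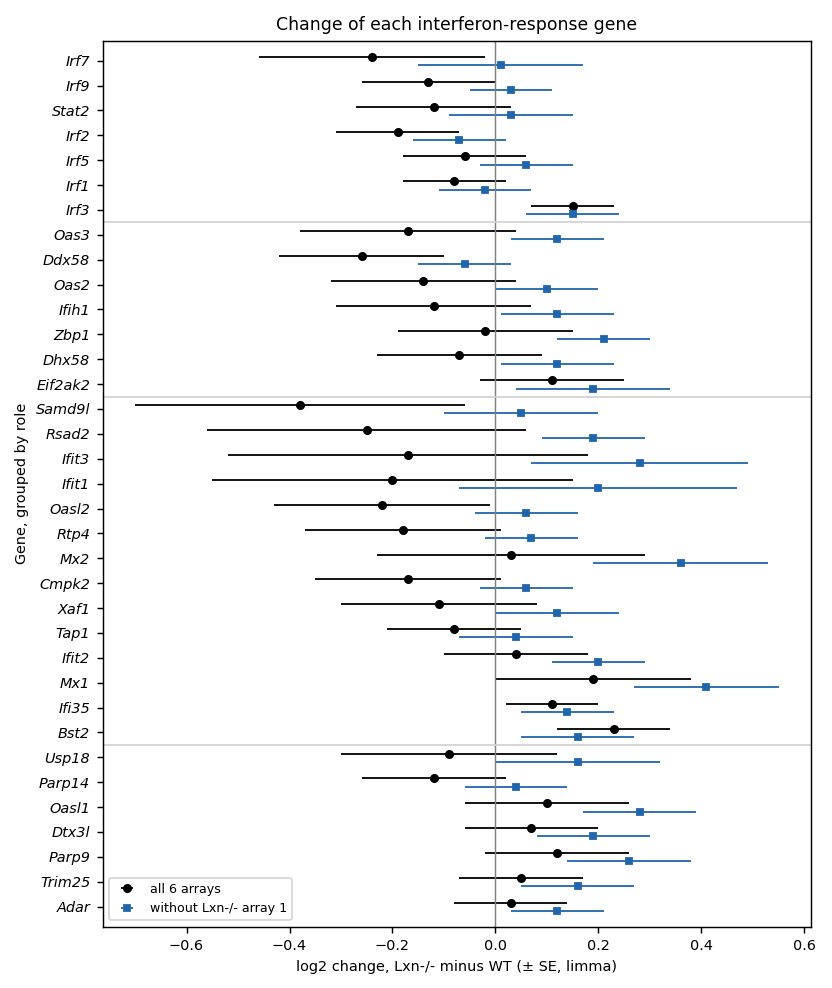
Each row gives 1 gene's log2 change, Lxn-/- minus WT, with its SE (horizontal axis), from all 6 arrays (black circles) and without Lxn-/- array 1 (blue squares). Most black points lie left of 0 and most blue points right of it, 23 of 35 and 32 of 35.

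Markers of some cell types were also low in Lxn-/- array 1, and those of others were not. Mast cell and basophil markers (7 of 7 measured) had a mean log2 level of 7.52 in array 1 and 8.18 and 8.24 in Lxn-/- arrays 2 and 3, against 8.36 to 8.56 in WT, and array 1 was the lowest array for 6 of them. Long-term stem cell markers (8 of 8 measured) had a mean of 7.74 in array 1 and 8.08 and 7.97 in Lxn-/- arrays 2 and 3, against 8.04 to 8.24 in WT. Megakaryocyte markers (5 of 7 measured) had a mean of 7.63 in array 1 and 7.84 in each of Lxn-/- arrays 2 and 3, against 7.97 to 8.30 in WT, and array 1 was the lowest for 3. Over all features array 1 was the lowest for 17.9%. In the mast cell and megakaryocyte lists every Lxn-/- array thus had a mean below WT, not array 1 alone. Markers of plasmacytoid dendritic cells, which express Irf7 and Bst2 strongly, were mixed in array 1. The 7 of 8 measured averaged 8.60, 8.45 and 8.59 in Lxn-/- arrays, against 8.54 to 8.68 in WT, and array 1 was the lowest for 1 of them, Cd300c. Relative to the WT mean, array 1 ranged from -0.62 for Cd300c to 0.80 for Cox6a2. Monocyte and macrophage markers (7 of 8 measured) averaged 9.01, 9.20 and 9.23 in Lxn-/- arrays, against 8.71 to 9.15 in WT. That mean covers opposite changes. At an unadjusted p under 0.05 in limma, Ccr2 (0.75, SE 0.16), Ms4a6c (0.56, SE 0.18) and Csf1r (0.50, SE 0.14) were higher. Vcam1 (-0.52, SE 0.18) was lower, and the other measured markers of the list did not reach that level. Of all features 5.06% were higher and 9.23% lower. None of these markers passed an adjusted p of 0.05. In array 1, neutrophil markers averaged 10.84 (10.71 to 11.20 in WT) and B cell markers 7.36 (7.35 to 7.68 in WT). Erythroid markers averaged 8.19 there (8.10 to 8.49 in WT) and conventional dendritic cell markers 8.17 (8.13 to 8.27 in WT). T and NK cell markers averaged 7.48 in array 1, just above the 7.31 to 7.47 in WT. Log2 array values have no true 0, so none of these markers can be called absent. The part of these cell types, or of array quality, in the interferon-gene values was not tested.

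The low of Lxn-/- array 1 was also common among other genes of the response. Among other interferon-stimulated genes (44 of 52 measured), the median change was 0.014, with 24 higher and 20 lower means. At an unadjusted p under 0.05, 2 were higher and 0 lower, against 5.06% and 9.23% of all features. Array 1 was the lowest for 23 of these 44 and array 2 the highest for 23, against 17.9% and 13.8% of all features. Ifitm1, which blocks viral entry, was opposite to the members, at 13.19, 12.48 and 12.77 in Lxn-/- arrays, against 12.24, 12.33 and 12.22 in WT (change 0.55, SE 0.16). Ifi205, of the DNA-binding p200 family, was 7.76, 8.32 and 7.68 in Lxn-/- arrays, against 7.78, 7.05 and 7.23 in WT (change 0.57, SE 0.21). Gbp4, a guanylate-binding protein gene singled out after its values were seen, was 6.45, 9.35 and 7.01 in Lxn-/- arrays, against 9.07, 7.91 and 8.98 in WT. It was low in both arrays with Y-linked signal. Over all 6 arrays its change was -1.05 (SE 0.65, limma adjusted p = 0.432), and it was -0.47 without array 1 and -0.75 without array 3. Only without array 2, at -1.93, did it pass (limma adjusted p = 0.0131). No other gene of the interferon pathway lists passed in that fit, where genotype and sex-linked signal cannot be told apart. Guanylate-binding genes are closely related in sequence, so the Gbp4 probes may read more than 1 of them.

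Signalling genes upstream of the set had smaller gaps in array 1, with list medians of -0.07 for receptors and 0.03 for sensing adaptors relative to the WT mean. Receptors and JAK-STAT genes (15 of 16 measured) had a median change of 0.044 and 0 at an unadjusted p under 0.05. Array 1 was the lowest for 7 of them, against 17.9% of all features. Socs3, a feedback inhibitor of JAK signalling, was 9.13, 8.52 and 8.95 in Lxn-/- arrays, against 8.60, 8.63 and 8.52 in WT (change 0.28, SE 0.15). Its arrays 1 and 3 lay above every WT array, and array 2 did not. Ifnar2, a subunit of the type I interferon receptor, was 11.91, 12.05 and 12.07 in Lxn-/- arrays, against 11.90, 11.72 and 11.89 in WT (change 0.18, SE 0.09). Sensing adaptors and kinases (15 of 16 measured) had 11 higher means, beside 9882 of all 23410 features. At an unadjusted p under 0.05, 4 of the 15 were higher, against 5.06% of all features, none with an adjusted p under 0.05 in limma. These included Cgas, the cytosolic DNA sensor (0.27, SE 0.09), and its adaptor gene Sting1 (0.25, SE 0.09). The others were the Toll-like receptor adaptor gene Myd88 (0.25, SE 0.10) and the RNA receptor gene Tlr7 (0.32, SE 0.14). Tlr7 lies on the X chromosome and overlapped WT, at 8.92, 9.36 and 9.24 in Lxn-/- arrays, against 8.98, 8.65 and 8.92 in WT. The part of sex in its values was not tested. Sting1 was 11.92, 11.90 and 11.80 in Lxn-/- arrays, against 11.60, 11.56 and 11.71 in WT, without overlap, as were 8.54% of all features in that direction. Of the other IRF family genes (5 of 6 measured), Irf8, a factor of monocyte and dendritic fate, was 11.50, 11.45 and 11.42 in Lxn-/- arrays, against 11.26, 10.97 and 10.88 in WT (change 0.42, SE 0.11, limma adjusted p = 0.340).

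Of the 8 measured interferon ligand features, 3 were lower in Lxn-/- cells at an unadjusted p under 0.05, beside the 9.23% of all features given above, none with an adjusted p under 0.05 in limma. Ifnb1 was 5.79, 5.62 and 5.68 in Lxn-/- arrays, against 5.86, 5.92 and 6.26 in WT (change -0.31, SE 0.12). These are low values, below the Mx2 mean of 6.66, which lies at percentile 28.4 of all tested features, so Ifnb1 may be near background. The other lower ligand features were Ifna5 (-0.27, SE 0.09) and Ifnl2 (-0.31, SE 0.11), members of families of near-identical genes whose probes can read several copies. Array 1 was the lowest array for 0 of the 8 ligand features, against 17.9% of all features. Any link between ligand and response gene values was not tested.

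**Figure D5:**
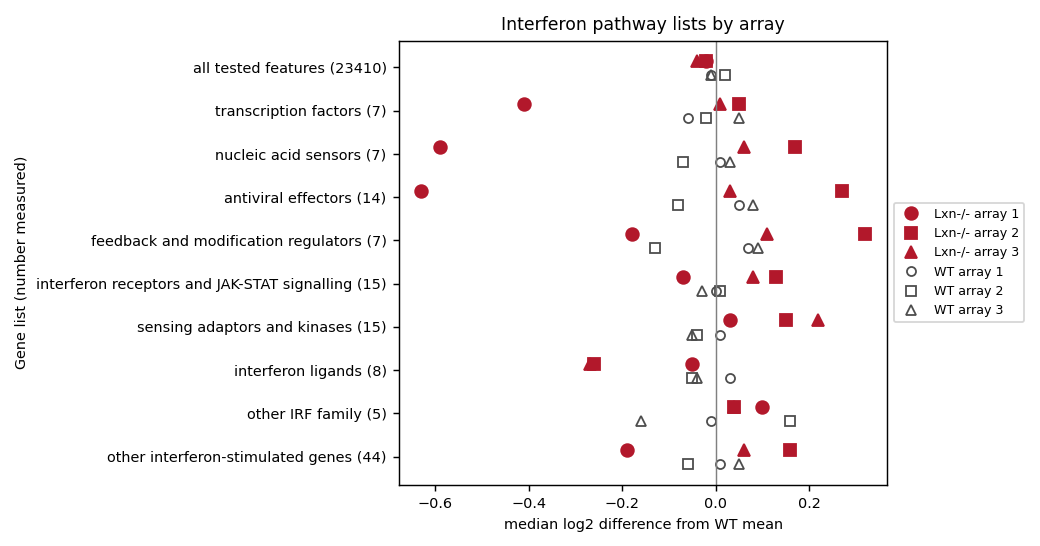
Each row is a gene list and each symbol an array, placed at the list's median log2 difference from the WT mean (filled, Lxn-/-, open, WT). Lxn-/- array 1 (filled circle) lies at -0.63 for effectors and at 0.03 for sensing adaptors and kinases.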

How the data were processed

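The deposited table gives log2 values made by RMA (per the series text and the submitters' processing notes, which also name Partek 6.0) for 35557 features on 6 arrays labelled from 100 ng of total RNA each. The log2 scale was read from the values (2.93 to 14.78), while the sources used here state no RMA settings, genome build or scan dates. RMA usually gives arrays a common distribution, which hides any change in total RNA per cell. Titles give the groups. Every array holds its own pool, and the number of arrays limits the precision.

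Gene names came from GEO's platform annotation, updated through Entrez IDs (21698 of 21789 single-gene features matched). The 1621 features with several genes were tested and left unnamed, and 12147 without a symbol were not used. Where a gene has several features the one with the highest mean stands for it. Two-sided tests of the 23410 features used lmFit and eBayes (limma 3.58.1, R 4.3.3). P-values were adjusted by Benjamini and Hochberg's method across these features, and the fit was tested on simulated data. The labels name no batch, and replicate numbers were not used in the main fit. Correlations of same-numbered deviations were 0.076, -0.008 and -0.006, against -0.051 to 0.052 for other pairs. With so few arrays they cannot show whether same-numbered arrays were handled together. Members and lists were chosen with earlier results of these data known. Values are given for every array and group changes for the members of highest signal and largest change in each role, while Irf3, Bst2, Ifit1, Ifit3 and Rsad2 were added after their values were seen. Of each other pathway list, genes are named among the 4 of smallest p. Alternatives were a replicate block, arrays left out, quantile normalization, median centring, brighter features only, trend and robust eBayes, array weights and means over a gene's features. Figures used matplotlib 3.10.9 in Python 3.11.15.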

Additional observations from a re-analysis of the deposited data

How the results depend on the processing

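Members past an adjusted p of 0.05 in limma stayed at 0 under every alternative run. Over all features that count was 0 in the fit of all arrays (3346 features at an unadjusted p under 0.05) and 1 with the replicate block. It was 0 to 145 with single arrays left out. The 145, which include Xist and Eif2s3y, came without Lxn-/- array 2. At an unadjusted p under 0.05 there were 5614 features with array weights, 3129 after median centring and 1356 among the brighter features alone. The number was 1812 after quantile normalization and 1628 to 5541 with single arrays left out. Members at that level, 0 in the fit of all arrays, numbered 2 after median centring, 1 after quantile normalization, 12 without Lxn-/- replicates 1 and 3, and 0 to 7 with single arrays left out. Without replicates 1 and 3, the lone Lxn-/- array, whose Xist and Y-linked signal was near that of WT, is assumed to vary like WT. The member count of that fit, all higher in Lxn-/-, thus rests on that lone array, and no conclusion is drawn from it. Apart from this count, only changes are given for that fit.

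The members' median change of -0.085 was 0.023 with array weights, which gave Lxn-/- array 1 a weight of 0.356, -0.162 after quantile normalization, -0.028 after median centring, 0.217 without Lxn-/- replicates 1 and 3, and -0.238 to 0.121 with single arrays left out. The count of members lowest in Lxn-/- array 1 was 30 after quantile normalization and 26 after centring, and that of members highest in array 2 was 21 and 27. Both settings were chosen after seeing the data for these 2 counts.

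The sign of named changes turned in these cases, and the cause was not tested. With array weights Ifit1 was 0.01, Ifit3 0.08, Rsad2 0.02 and Oas2 0.00. After quantile normalization Dtx3l was -0.01 and Trim25 -0.03. Without Lxn-/- replicates 1 and 3, Ddx58 was 0.04, Ifit1 0.70, Ifit3 0.63, Irf7 0.28, Oas2 0.07, Oasl2 0.18, Parp14 0.15, Rsad2 0.31, Samd9l 0.31 and Tap1 0.18. With single arrays left out the ranges were -0.05 to 0.19 for Dtx3l, -0.64 to 0.20 for Ifit1, -0.57 to 0.28 for Ifit3, -0.50 to 0.01 for Irf7, -0.27 to 0.10 for Oas2, -0.41 to 0.06 for Oasl2, -0.26 to 0.04 for Parp14, -0.52 to 0.19 for Rsad2, -0.72 to 0.05 for Samd9l, -0.22 to 0.04 for Tap1 and -0.03 to 0.16 for Trim25. The replicate block changed no other call.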
